A study of Drosophila melanogaster with 6 samples.

Results

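The genes described here are 10 potassium channel genes of Drosophila melanogaster, Sh, Shab, Shal, Shaw, eag, sei, Elk, slo, SK and KCNQ, listed by name and matched by symbol among the 16493 genes of the tables. All 10 were found, with 2671 UMIs for KCNQ at the low end and 274607 for Sh at the high end over the cells kept. A UMI, or unique molecular identifier, marks a single captured messenger RNA molecule. The study profiled single brain cells from flies without Appl, the fly homolog of the amyloid precursor protein gene, and from control flies. The 3 Appl- libraries came from flies that the labels give as genotype Appl[d] w[*] with Appl deleted, and the 3 control libraries came from w1118 flies, with no drug or other treatment named in either group. Every library pooled 20 male and 20 female brains from flies aged 10 days. The white allele w[*] is not specified further and the lines may differ elsewhere in their backgrounds, so loss of Appl and strain background cannot be told apart. Each library is a pool, and no label says whether pools with the same replicate number shared a day or a culture.

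Potassium channels let potassium leave the cell, which brings the membrane back toward rest after an action potential and sets how readily the cell fires again. Voltage-gated members open on depolarization. The fast, inactivating A-type current of fly neurons flows through Shaker (Sh) and Shal, and the slower, sustained delayed-rectifier current flows through Shab and Shaw. The ether-a-go-go family holds eag, sei, which is the fly ERG channel, and Elk. The slo and SK channels respond to calcium inside the cell, slo being the large-conductance BK channel and SK the small-conductance one. KCNQ carries a slowly activating current that damps repetitive firing, known as the M-current in mammals.

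The libraries held 11282730 to 56384733 UMIs in 67362 barcodes, of which 25188 with no more than 10% mitochondrial UMIs and at least 200 genes were kept as cells (13266 Appl- and 11922 control). Control replicate 1 stood apart, with 29008 barcodes of which 84.7% exceeded the mitochondrial limit, against 31.8% to 63.9% in the other libraries. Calls made without a replicate block are therefore also given without it. Libraries shared 2 to 16 kept barcodes a pair. As a check of the labels, Appl had 205, 255 and 233 UMIs per 1000000 gene UMIs (CPM) in Appl- cells and 2063, 2316 and 2058 CPM in control cells.

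Cells were grouped by clustering without the channel genes, and clusters were named from marker genes. The neuron-like clusters held 24437 cells. Of these, 1668 were Kenyon cell-like (the intrinsic neurons of the mushroom body, in clusters 5 and 11), 1254 were T4/T5-like (the motion-sensing neurons of the optic lobe, cluster 3), 383 were Mi1-like (a medulla neuron, cluster 18) and 297 were monoaminergic-like (cluster 25). The other neuron-like clusters were grouped by their leading transmitter gene into 11693 VAChT-high, 2038 Gad1-high, 3604 VGlut-high and 3500 mixed cells. The glia-like class was a single cluster of 315 cells, 28 to 77 a library. The photoreceptor-like cluster, with 63 cells, and the fat body-like cluster, with 164 cells, had under 20 cells in some libraries and were not tested for differences in level.

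Transcripts of the channel genes were lower in glia-like than in neuron-like cells for most of the 10. Fitted on sums per library with each library as its own block, 8 of the 10 genes were called higher in neuron-like cells, against a background of 11.6% of 7338 genes called higher. A gene was called, here and below, when edgeR's adjusted p was under 0.05 and its change at least 0.32 on the log2 scale, the fold limit of the study's methods. The median over the 10 genes was a log2 difference of 0.73, and over all genes tested 0.10.

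Elk had the largest of these differences, at 1.06 on the log2 scale, followed by Shab at 1.02 and Sh at 0.91. The differences for slo, SK, eag, Shal and Shaw lay between 0.75 and 0.66. The ERG channel gene sei differed by 0.63 (SE 0.26, adjusted p = 0.0964) and KCNQ by 0.03 (adjusted p = 0.966), neither of which passed. Without control replicate 1 the calls of Shaw (0.59) and Elk (0.95) were lost and the other 6 stood. Neuron marker transcripts were also counted in the glia-like cluster, and the source of the channel transcripts there was not tested. The 6 neuron markers summed to 4417 to 7367 CPM in glia-like cells and 8784 to 10840 CPM in neuron-like cells, so that the glia-like level was 57.5% ± 6.78 of the neuron-like level (SD, n = 6 libraries). Apart from KCNQ, the channel genes had mean shares of 50.6% (Shab) to 63.8% (Shaw), with SDs from 2.81 for eag to 35.9 for Elk. KCNQ had a higher mean share, 104% ± 58.4 on 33 UMIs, but its libraries ran from 44.3% to 205%, a range that includes the marker share.

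Within neurons, the levels differed by class most for Elk, eag and SK. CPM values below are computed within each class, as mean ± SD over the 6 libraries, and are compared within a gene only, since they are not scaled to transcript length. The classes were drawn from the same cells, so these levels are a description. The plot of levels by cell class shows each library.

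**Figure D1:**
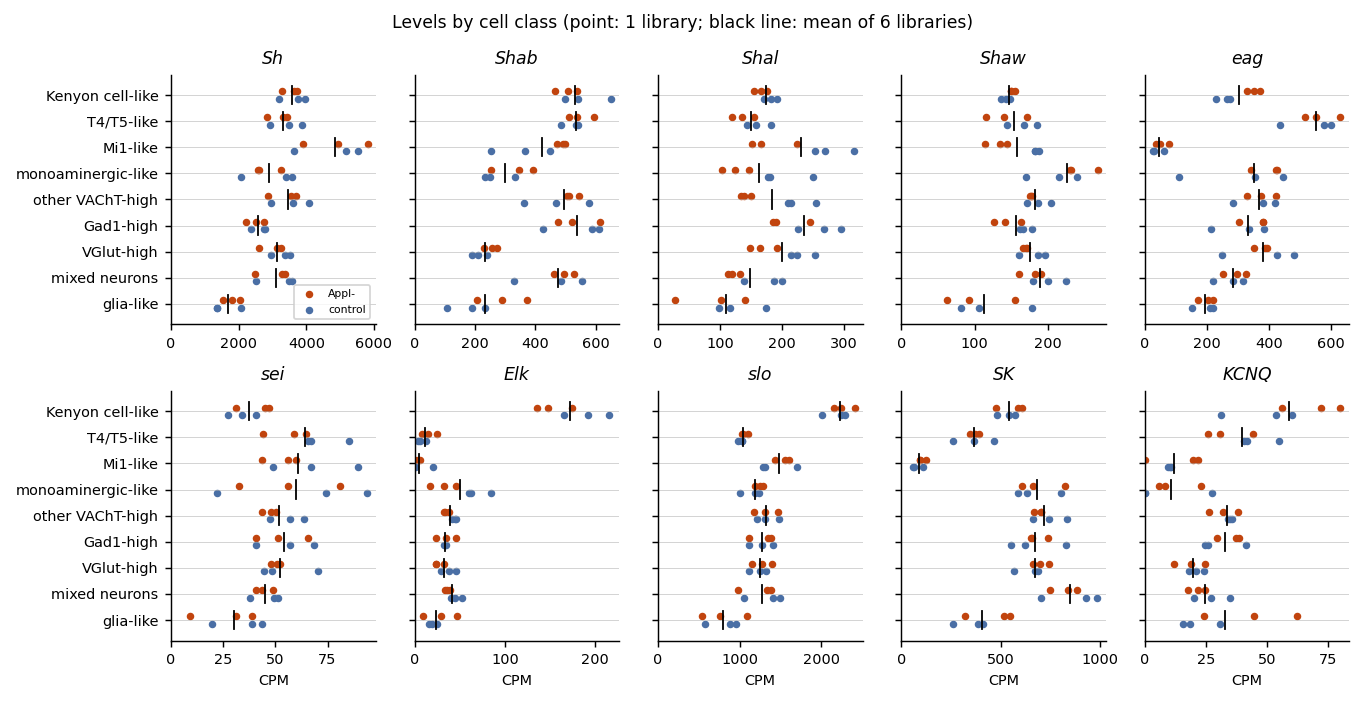
Level of each channel gene (CPM, 1 panel a gene) in 9 cell classes, with a point for each of the 6 libraries, Appl- (red) above control (blue), and a black line at the mean of 6. Elk and slo stand above all other classes in Kenyon cell-like cells, and eag and SK stand below all other classes in Mi1-like cells.

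Among the A-type channel genes, Sh was highest in Mi1-like cells, at 4835 ± 885 CPM, and lowest among neurons in Gad1-high cells, at 2564 ± 238 CPM. The only neighbours in the order of Sh that were separated beyond their spread were Gad1-high and glia-like cells (1693 ± 318 CPM). Shal ran the other way in Gad1-high cells, which had its highest mean, 235 ± 43.1 CPM, next to Mi1-like cells at 230 ± 62.5 CPM. No neighbouring classes of Shal differed beyond their spread, down to 110 ± 49.2 CPM in glia-like cells.

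The delayed-rectifier genes differed in how they spread. Shab was close to even in Gad1-high (539 ± 77.5 CPM), T4/T5-like (535 ± 36.7 CPM) and Kenyon cell-like cells (533 ± 64.0 CPM). In VGlut-high cells it was 234 ± 30.8 CPM, at the level of the glia-like cluster and below Gad1-high cells in all 6 libraries. Shaw was the flattest of the 10 across clusters, with a highest cluster 1.43 times the median cluster. Its class means ran from 226 ± 32.6 CPM in monoaminergic-like to 147 ± 6.30 CPM in Kenyon cell-like neurons, with no step beyond the spread.

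In the ether-a-go-go family, eag was highest in T4/T5-like cells, at 551 ± 68.6 CPM, and lowest in Mi1-like cells, at 46.8 ± 20.7 CPM. The Mi1-like level lay below the glia-like level of 195 ± 28.1 CPM in all 6 libraries, a step beyond the spread. Elk was highest in Kenyon cell-like cells, at 172 ± 29.2 CPM, and the next class, monoaminergic-like, had 50.6 ± 24.1 CPM. Mi1-like cells had 5.10 ± 7.93 CPM of Elk, resting on 12 UMIs in all libraries together. Kenyon cells were thus the one class that stood apart for Elk beyond the spread. The class means of sei lay between 64.3 ± 13.4 CPM in T4/T5-like cells and 30.1 ± 13.3 CPM in glia-like cells, with no step beyond the spread.

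Of the calcium-activated channel genes, slo was highest in Kenyon cell-like cells, at 2228 ± 135 CPM, beyond the spread from Mi1-like cells at 1483 ± 167 CPM. SK was highest in mixed neurons, at 846 ± 107 CPM, and lowest in Mi1-like cells, at 90.3 ± 26.6 CPM. The next class above, T4/T5-like, had 365 ± 67.1 CPM, a step beyond the spread. The Mi1-like cluster therefore combined the highest mean of Sh with the lowest means of eag, Elk and SK. KCNQ had its highest class mean in Kenyon cell-like cells, at 58.9 ± 16.8 CPM, and its lowest in monoaminergic-like cells, at 10.7 ± 11.8 CPM on 9 UMIs in all, without a step beyond the spread.

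Single clusters varied more than classes. The plot of levels by cluster covers the 38 clusters with at least 100 cells, where levels are pooled over libraries.

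**Figure D2:**
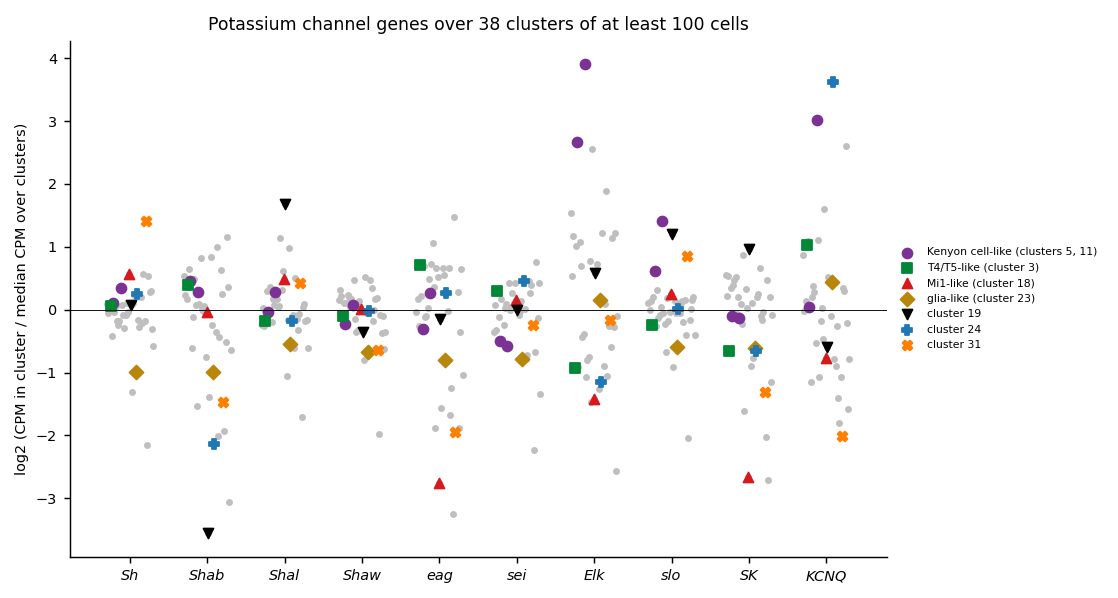
Level of each channel gene in the 38 clusters of at least 100 cells, with a point a cluster, a column a gene, and log2 of CPM over the gene's own median cluster on the vertical axis (gray points are clusters not named in the legend). Elk is high in the Kenyon cell-like clusters 5 and 11, KCNQ in clusters 24 and 11, and Shab is low in cluster 19.

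The Kenyon cell-like clusters differed from each other. Cluster 11, led by SP1173, Tsp42En and crb, had 305 CPM of Elk, and cluster 5, led by GstD11 and prt, had 129 CPM, beside a median cluster of 20.4 CPM. KCNQ had 166 CPM in cluster 11 and 21.0 CPM in cluster 5, and slo had 3252 and 1867 CPM. All 3 genes were thus higher in cluster 11, and for KCNQ cluster 5 lay near the median cluster of 20.5 CPM. The highest KCNQ cluster was cluster 24, with 253 CPM (174 to 353 over libraries), where KCNQ was itself among the 10 leading genes beside Fs and sim.

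Cluster 19, led by slp2 and AstA-R2, combined high Shal and SK with low Shab. It was the highest cluster for Shal, at 544 CPM against a median cluster of 170 CPM, and for SK, at 1133 against 580 CPM. Its slo level, pooled over libraries, was 2820 against 1220 CPM, but single libraries ran from 1838 to 4429 CPM and differed by genotype, as given below, with 26, 71 and 20 of its cells in the Appl- and 126, 56 and 74 in the control libraries. Shab was at its lowest there, with 33.9 CPM against a median cluster of 400 CPM, on 50 UMIs in 373 cells. Cluster 34 had the reverse of this for Shab and SK, with the highest Shab, 894 CPM, and the lowest SK, 88.8 CPM. Cluster 31, led by Crz, which encodes the neuropeptide corazonin, and by Eaat1, had the highest Sh, 8462 CPM with libraries from 6077 to 10736 CPM, against a median cluster of 3173 CPM. The highest eag cluster was cluster 30 with 930 CPM and the lowest was cluster 29 with 35.3 CPM, on 18 UMIs.

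Across the same 38 clusters, the 10 genes formed 45 pairs, of which 38 had a positive and 7 a negative Pearson correlation of log2 CPM, with a median of 0.15. These correlations run across clusters that share libraries and depth and are a description. The clusters included the glia-like cluster 23, the fat body-like cluster 37 and cluster 32, which was left unnamed. Cluster 32 was the lowest for Sh (713 CPM), slo (297 CPM), Shal, Shaw and sei. Whether the correlations given here hold among neuron-like clusters alone was not tested. Sh and slo were most alike, at 0.75, then Shal and slo at 0.68 and Sh and Shal at 0.60. The lowest pair was sei and Elk, at -0.18. Among the 5769 genes searched, those most like Sh were cac, the main voltage-gated calcium channel gene of synapses, and na, a sodium leak channel gene, both at 0.87. The genes most like slo were Rbp, which encodes the RIM-binding protein of active zones, at 0.85, and Ca-beta, a calcium channel subunit gene, at 0.82. Shaw was most like Drep2 (0.84) and CaMKII, a calcium-dependent protein kinase gene (0.82), and sei was most like Bili (0.84) and CG8245 (0.82). Shal was most like lap (0.78) and pan (0.77), Elk most like jdp (0.76) and 14-3-3zeta (0.74), and SK most like shakB, an innexin gene of electrical synapses (0.74), and Rbp9 (0.63). The best matches were weaker for Shab (Ccn, 0.73, and unc-13-4A, 0.63), eag (woc, 0.71, and cyst, 0.69) and KCNQ (GlcAT-P, 0.56, and jar, 0.49).

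Between genotypes, the clearest difference was a lower level of Shal in Appl- neurons. In neuron-like cells Elk was also lower in every Appl- library than in any control library, but edgeR's adjusted p of 0.0724 missed the threshold. The remaining 8 genes overlapped between genotypes, while 25.5% of all 8213 genes tested there did not. These comparisons ask which channel transcripts differed between the Appl- and control lines. In bulk sums over cells of a class, fewer cells expressing a gene and fewer transcripts per cell cannot be told apart.

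**Figure D3:**
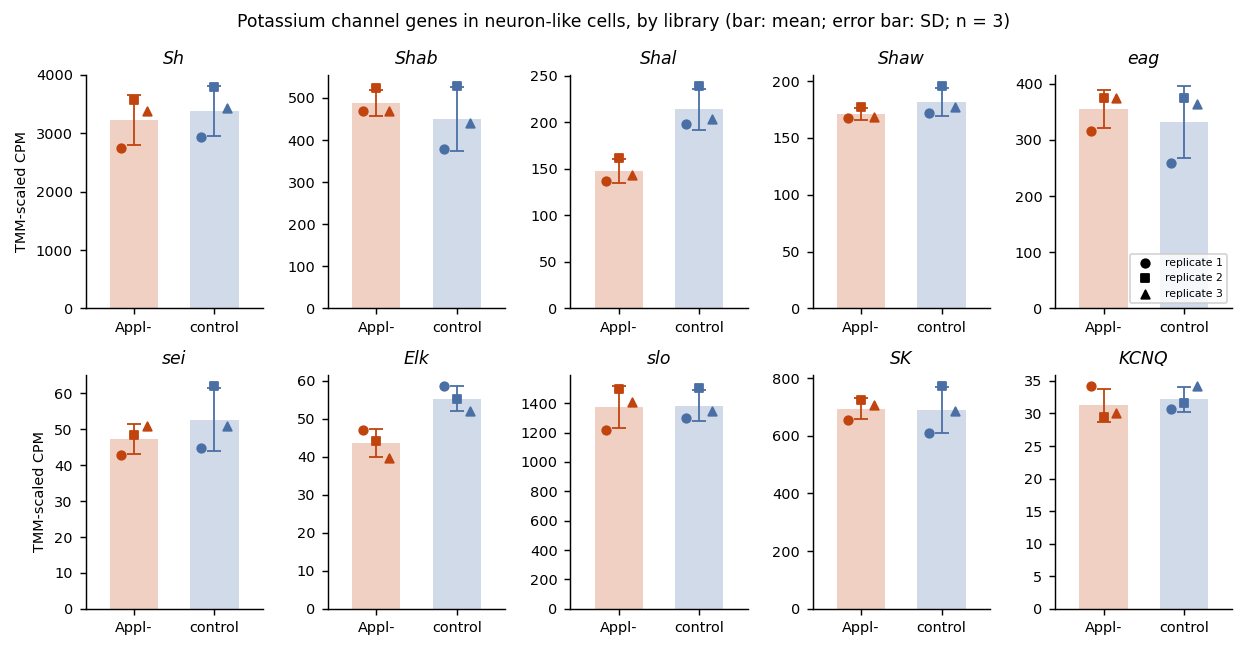
Level of each channel gene (CPM after TMM scaling) in neuron-like cells of each library, with a point a library, bars at the mean and error bars of 1 SD (n = 3 Appl- on the left, n = 3 control on the right). The Appl- and control points are separate for Shal and Elk, as for 25.5% of all genes tested, and overlap for the other 8 genes.

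In neuron-like cells, scaled by edgeR's trimmed mean of M values (TMM), Shal had 137, 162 and 143 CPM in Appl- libraries and 198, 239 and 204 CPM in control libraries. All Appl- libraries lay below all control libraries, and 25.5% of the 8213 genes tested were separated in this way, in one direction or the other. Shal averaged 147 ± 12.9 CPM in Appl- and 214 ± 22.3 CPM in control (SD over 3 libraries). The log2 fold change was -0.54 (SE 0.11, adjusted p = 0.0282), and Shal was the 1 gene of the 10 called by edgeR. The background was 6.25% of genes called in either direction and 2.93% called lower. With the replicate number as a block the adjusted p was 0.0028, and without control replicate 1 the change was -0.58 with an adjusted p of 0.0120. The call was lost in 6 of 17 alternatives, with fold changes of unchanged sign. It was lost without Appl- replicate 1, 2 or 3 or control replicate 2 or 3, at adjusted p = 0.0692 to 0.149. It was also lost with cells thinned to 500 UMIs.

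Elk had 47.0, 44.1 and 39.7 CPM in Appl- libraries and 58.7, 55.2 and 52.2 CPM in control libraries, again with no overlap. Its log2 fold change was -0.34 (SE 0.09), with an adjusted p of 0.0724 that missed the threshold. With the replicate block Elk was called, at an adjusted p of 0.0143, which made 2 of the 10 genes, both lower, against a background of 11.9% called in either direction and 6.14% lower. Without control replicate 1, Elk had a log2 fold change of -0.29 and an adjusted p of 0.121.

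The other A-type gene, Sh, averaged 3231 ± 425 CPM in Appl- and 3383 ± 430 CPM in control neurons, a log2 fold change of -0.07 (SE 0.13). Shab averaged 487 ± 31.1 CPM in Appl- and 449 ± 76.1 CPM in control neurons, and Shaw 171 ± 5.46 and 182 ± 12.7 CPM. Neither delayed-rectifier gene passed the test, at 0.12 (SE 0.13) and -0.08 (SE 0.09) on the log2 scale. In the ether-a-go-go family, eag averaged 355 ± 34.3 CPM in Appl- and 332 ± 64.1 CPM in control neurons, and sei 47.4 ± 4.15 and 52.7 ± 8.74 CPM. The calcium-activated genes were closest to 0, with slo at 1375 ± 142 CPM in Appl- and 1384 ± 108 CPM in control neurons (-0.01, SE 0.11) and SK at 694 ± 35.8 and 689 ± 81.3 CPM (0.01, SE 0.11). KCNQ averaged 31.2 ± 2.56 CPM in Appl- and 32.2 ± 1.86 CPM in control neurons. The adjusted p of these 8 genes lay between 0.588 and 0.980. Over the 10 genes the median log2 fold change was -0.05, and over all genes tested -0.01.

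Summed over all kept cells, no channel gene was called by edgeR, against a background of 5.95% of 8511 genes. Shal and Elk had the lowest p of the 10. Shal had 136, 162 and 144 CPM in Appl- and 188, 231 and 200 CPM in control libraries, a log2 fold change of -0.48 (SE 0.11, adjusted p = 0.0515). It was called by DESeq2 (adjusted p = 0.0026), with the replicate block (0.0084, in a fit that called 10.8% of genes) and without control replicate 1 (0.0289). The shares of all genes called by DESeq2 and without control replicate 1 are not given here, so those calls have no background beside them. Elk had 46.7, 44.3 and 39.7 CPM in Appl- and 55.1, 52.7 and 51.0 CPM in control libraries, at -0.28 with an adjusted p of 0.125.

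Transcripts of hemocyte markers also differed between the neuron-like sums. The 7 hemocyte markers summed to 1.96 to 4.75 CPM in Appl- and 5.59 to 17.7 CPM in control neuron-like cells, without overlap. The 8 photoreceptor markers overlapped, at 602 to 739 CPM in Appl- and 720 to 920 CPM in control. So did the 10 glia markers, at 221 to 313 CPM in Appl- and 255 to 416 CPM in control, and the 6 fat body markers, at 89.2 to 127 and 92.9 to 264 CPM. All listed markers of these lists had a UMI in neuron-like cells. Their part in the lower Shal was not tested. Neuron-like cells made up 98.3% ± 0.35 of Appl- and 95.7% ± 1.26 of control cells.

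The share of neuron-like cells with at least 1 UMI of Shal was 32.1% ± 1.90 in Appl- and 43.5% ± 2.93 in control libraries before depth was matched. After every cell was thinned to 1000 UMIs, leaving out 99, 341 and 259 shallower cells of the Appl- and 22, 232 and 259 of the control libraries, the share was 12.2%, 14.2% and 13.2% in Appl- and 16.7%, 20.6% and 18.4% in control libraries. The thinned shares did not overlap, and the exact two-sided permutation test gave p = 0.1, the smallest that 3 against 3 libraries allow. In glia-like cells the thinned share of Shal averaged 7.43% in Appl- and 10.8% in control libraries. The Appl- libraries had 2.45%, 9.48% and 10.4% and the control libraries 9.37%, 12.4% and 10.8%, which overlapped (exact permutation p = 0.3). The median depth of these cells before thinning was 2741 UMIs, against 2776 in the thinned neuron-like cells. Whether the glia-like share came from free RNA, from cells captured together or from expression in glia was not tested. Elk was found in 3.77% ± 0.31 of Appl- and 4.64% ± 0.39 of control neuron-like cells after thinning (exact permutation p = 0.1), with 2.09% and 2.20% in glia-like cells. For the other 8 genes the exact p was 0.3 or above.

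Within neuron classes, 2 of 74 tests of a channel gene were called, or 2.7%, against 3.17% of all gene-by-class tests. In other VAChT-high neurons Shal had 134, 150 and 139 CPM in Appl- and 210, 255 and 214 CPM in control libraries. This was the lowest adjusted p of any class, 0.0110, at a log2 fold change of -0.66 (SE 0.11), in a class with 1.92% of genes called lower and 21.3% not overlapping, and the call was lost without Appl- replicate 3 (adjusted p = 0.0843). Without control replicate 1 it was -0.70. With the replicate block 5 of the 74 tests were called, or 6.76%, against 6.53% of all tests. The added calls were Shal in Mi1-like cells (-0.69, with 2.75% of genes called lower), VGlut-high cells (-0.47, with 2.53%) and mixed neurons (-0.49, with 2.89%).

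In Mi1-like cells Shal had 152, 166 and 224 CPM in Appl- and 253, 315 and 269 CPM in control libraries. VGlut-high cells had 148, 192 and 165 CPM in Appl- and 224, 254 and 215 CPM in control libraries, and mixed neurons had 112, 132 and 119 CPM against 139, 201 and 187 CPM. None of these overlapped, a separation that 17.3% of genes had in Mi1-like, 18% in VGlut-high and 18.9% in mixed cells. The adjusted p was 0.139 to 0.158 without the block and 0.0143 to 0.0318 with it. Shal was closest between genotypes in Kenyon cell-like cells, with 154.5, 176 and 166 CPM in Appl- and 182, 192 and 171.5 CPM in control libraries, which overlapped (-0.15, SE 0.13). In T4/T5-like and Gad1-high cells the values were -0.25 and -0.30 and overlapped, and in monoaminergic-like cells, the smallest class, -0.69 with an adjusted p of 0.975.

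**Figure D4:**
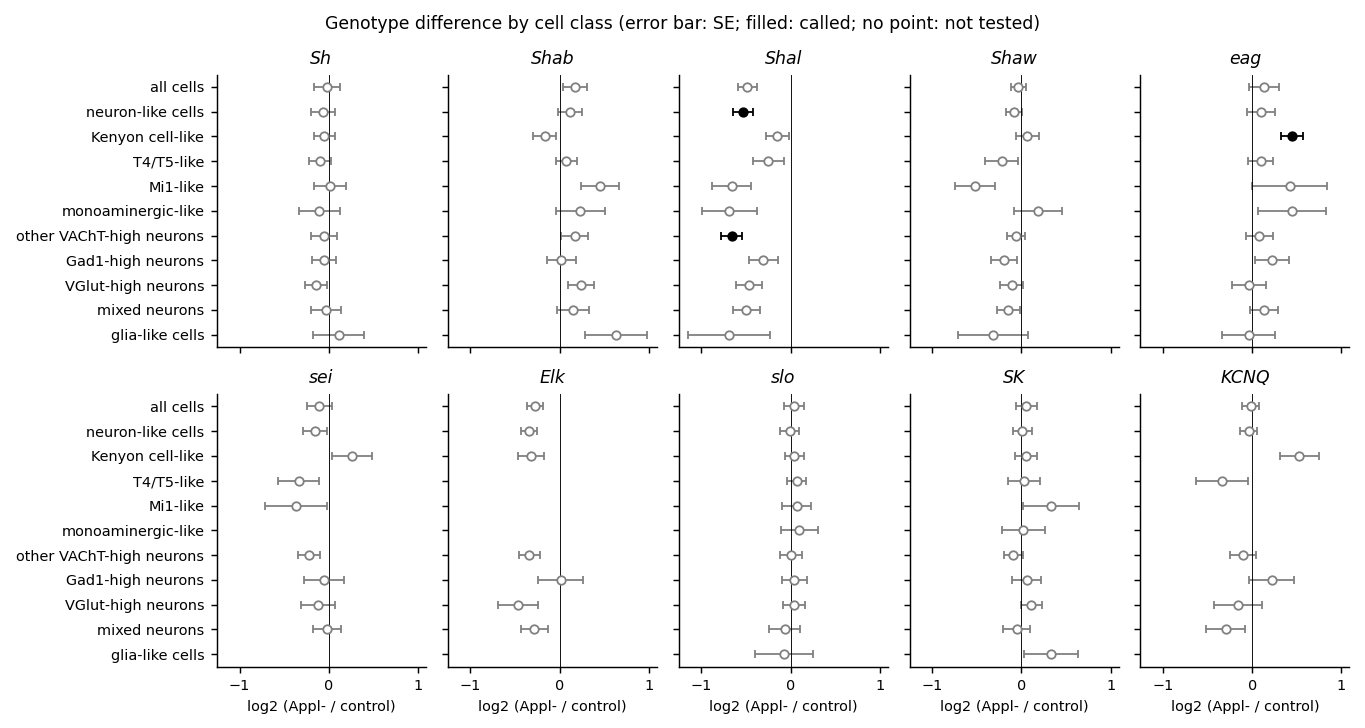
Log2 fold change, Appl- over control, of each channel gene (1 panel a gene) in all cells, in neuron-like cells, in each neuron class and in glia-like cells, with error bars of 1 SE from edgeR and filled points for called changes. Shal lies below 0 in every comparison shown, and eag in Kenyon cell-like cells is the only called change above 0.

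A single channel gene was called higher in Appl- cells of a class. In Kenyon cell-like cells eag had 353, 371 and 328 CPM in Appl- and 230, 275 and 264 CPM in control libraries, with no overlap. The log2 fold change was 0.45 (SE 0.12, adjusted p = 0.0463, and 0.0055 with the replicate block), in a class with 2.91% of genes called higher, 4.8% with the block, and 20.6% not overlapping. Leaving out any 1 of the 6 libraries ended the call, with adjusted p between 0.0547 and 0.207 and fold changes of 0.38 (without control replicate 1) to 0.51. In the same class KCNQ had a log2 fold change of 0.53 and Elk of -0.32, with adjusted p of 0.241 and 0.273.

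The mix of the 2 Kenyon cell-like clusters moved with genotype. Cluster 11 held 118 of 236, 146 of 404 and 77 of 180 cells of the class in the Appl- libraries, and 87 of 444, 52 of 190 and 77 of 214 in the control libraries. Its share was thus higher in every Appl- library than in any control library, by little between Appl- replicate 2 (36.1%) and control replicate 3 (36.0%). The part of this mix in the class values was not tested, so the values within each cluster are given beside them. Within clusters 5 and 11, eag differed by 0.30 and 0.51, neither called. KCNQ, which was several times higher in cluster 11, differed by 0.60 in cluster 5 (adjusted p = 0.397) and by -0.27 in cluster 11 (0.641), so that its direction in the class was not shared by both clusters. Elk was at -0.69 and -0.39, and Shal at -0.33 and 0.13.

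Whether the genotype difference was unequal between Kenyon cell-like and other neuron-like cells was tested as an interaction, a comparison chosen after the class values had been seen. None of the 10 genes was called by edgeR, against 1.53% of 7719 genes. Among the 10, the genes of lowest p were Shal, eag, KCNQ and Shab. The difference of the log2 fold changes was 0.41 for Shal (adjusted p = 0.10), 0.36 for eag (0.249), 0.68 for KCNQ (0.194) and -0.35 for Shab (0.0981). Without control replicate 1, Shal at 0.49 (adjusted p = 0.0111) and eag at 0.48 (0.0057) were called. With cluster 5 alone in place of the class none was called, with Shal at 0.21 (adjusted p = 0.694), eag at 0.20 (0.725) and KCNQ at 0.74 (0.419). With cluster 11 alone Shal was called, at 0.72 (0.0250), while eag was at 0.47 (0.199) and KCNQ at -0.08 (0.981). Between neuron-like and glia-like cells the interaction called 1.41% of 8037 genes and none of the 10, of which none had an unadjusted p under 0.05. In glia-like cells alone, Shal had 30.9, 108 and 149 CPM in Appl- and 122, 203 and 121 CPM in control libraries, which overlapped (-0.69, SE 0.46). There, 7 of the 10 genes had enough UMIs to be tested and none was called or had an unadjusted p under 0.05, against 0.923% of 2491 genes called.

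Shal and Elk also leaned one way across single clusters. In the 28 clusters with at least 20 cells in every library, Shal had a fold change below 0 in 26, with a median of -0.51 and a range of -1.13 to 0.13. Of the 1077 genes tested in all 28 clusters, 6.69% were below 0 in at least as many. The exceptions were cluster 11, a Kenyon cell-like cluster, at 0.13, and cluster 19, the cluster with the most Shal, at 0.07. Elk had enough UMIs in 9 clusters and was below 0 in all 9, with a median of -0.36, as were 8.54% of the 1944 genes tested in those 9 clusters. Sh was below 0 in 24 of 28 clusters at a median of -0.09, as were 13.4% of genes, and eag was above 0 in 20 of 28, as were 27% of genes. Clusters of a library share its depth and handling, so these counts are not counts of replicates.

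**Figure D5:**
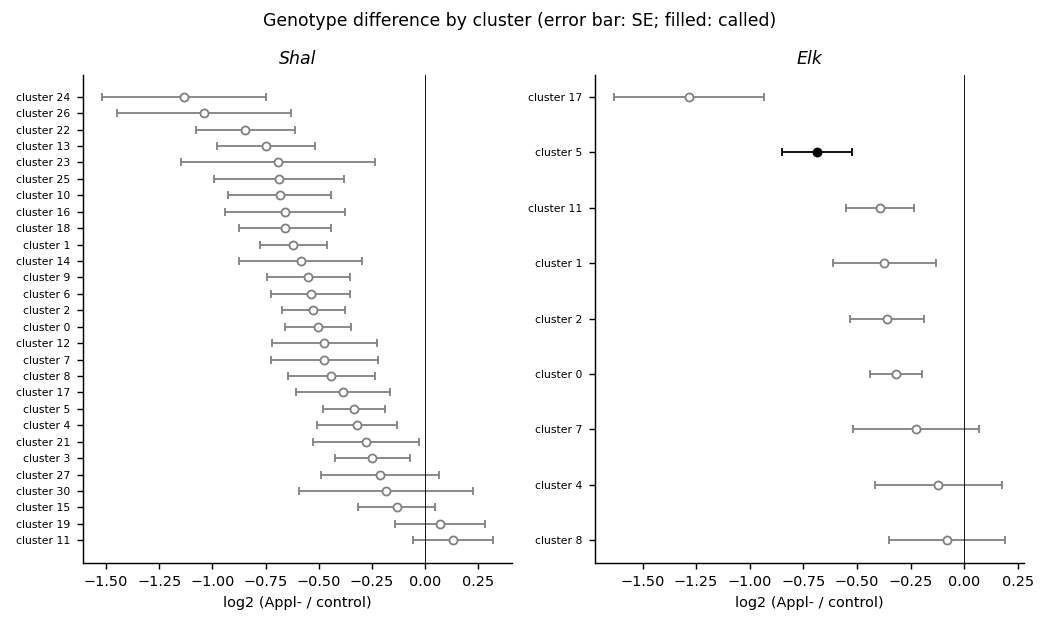
Log2 fold change, Appl- over control, of Shal in 28 clusters and of Elk in the 9 clusters where it was tested, with error bars of 1 SE from edgeR. Shal lies below 0 in 26 of 28 clusters and Elk in 9 of 9.

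Of 232 tests of a channel gene in a cluster, 2 were called, or 0.862%, against 1.96% of all 89982 gene-by-cluster tests. Elk in the Kenyon cell-like cluster 5 had 106, 107 and 72.5 CPM in Appl- and 140, 151 and 176 CPM in control libraries, a log2 fold change of -0.69 (SE 0.16, adjusted p = 0.0147). This call was lost without Appl- replicate 3 (0.121) or control replicate 3 (0.0792) and was kept without control replicate 1 (0.0100). In cluster 11, the other Kenyon cell-like cluster, Elk was not called. The other call was slo in cluster 19, with 4011, 4429 and 2736 CPM in Appl- and 2261, 1838 and 2416 CPM in control libraries (0.83, SE 0.19, adjusted p = 0.0302). Appl- libraries lay above control libraries for this gene, and the call was lost without Appl- replicate 1, Appl- replicate 2 or control replicate 2, at adjusted p = 0.0969 to 0.303. Without control replicate 1 it was 0.85 (0.0304).

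With the replicate block, 9 of the 232 tests were called, or 3.88%, the same share as over all genes (3.88%). They added Shal in clusters 1, 2, 18 and 22, all lower. Cluster 18 is the whole Mi1-like class, so its call repeats the one given above. Clusters 1 and 22 are parts of the other VAChT-high neurons and cluster 2 of the mixed neurons, so their cells were also in the class tests. In cluster 22 Shal had 157, 225 and 309 CPM in Appl- and 343, 408 and 462 CPM in control libraries, on 15, 38 and 32 UMIs and on 73, 69 and 91 UMIs. Elk was also called lower in cluster 17, with 56.0, 102 and 43.1 CPM in Appl- and 142, 242 and 156 CPM in control libraries, on 10, 26 and 4 UMIs and on 15, 31 and 21 UMIs. SK was called lower in cluster 9, with 383, 476 and 431 CPM against 518, 816 and 593 CPM. The last was eag in cluster 14, higher in Appl- with 437, 554 and 651 CPM against 298, 427 and 337 CPM.

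Other channel genes were taken from lists, of which the pore-forming potassium channel genes outside the 10 numbered 16. Over all cells 13 of them were tested, with 0 called higher and 1 lower, beside 2.93% of genes called lower, and a median of 0.03 on the log2 scale. The called gene was Shawl, a relative of Shaw, with 145 ± 4.99 CPM in Appl- and 220 ± 35.5 CPM in control cells (-0.60, SE 0.13, adjusted p = 0.0411). The call was lost in 7 of 14 alternatives, namely without Appl- replicate 1, 2 or 3 or control replicate 2 or 3 (adjusted p = 0.0880 to 0.163), with up to 20% mitochondrial UMIs (0.0652) and with cells thinned to 500 UMIs (0.0522), and was kept without control replicate 1 (-0.73, 0.00355). With the replicate block Irk3, an inward rectifier gene at 2.88 ± 1.83 CPM in Appl- and 7.0 ± 3.28 CPM in control cells, was also called lower. It rested on 63, 58 and 10 UMIs in Appl- and 160, 95 and 44 UMIs in control libraries, and its CPM overlapped between genotypes. Irk3 was far higher in glia-like cells, at 139 ± 112 CPM in Appl- and 165 ± 65.2 CPM in control. Glia-like cells made up 0.888% to 1.08% of Appl- and 1.20% to 1.73% of control cells, whose part in the lower Irk3 was not tested. In neuron-like cells, 12 genes of this list were tested and 1 was called lower, Shawl at -0.67 (adjusted p = 0.0170). With the replicate block 3 were called lower there, beside 6.14% of genes. These were Shawl, Irk2 (-1.05, adjusted p = 0.0215) and Irk3 (-1.15, 0.0277). Irk2 rested on 67, 51 and 20 UMIs in Appl- and 165, 46 and 73 UMIs in control libraries. Irk3 then rested on 36, 22 and 9 UMIs in Appl- and 93, 24 and 32 UMIs in control libraries. The CPM of both Irk genes overlapped between genotypes and was highest in control replicate 1. Of the 5 channel partners none was called by edgeR. The largest change among them was in Hk, the beta subunit of Shaker channels, with 875 ± 56.6 CPM in Appl- and 1158 ± 186 CPM in control cells (-0.40, adjusted p = 0.14), which the replicate block called (0.0301). None of the 10 sodium and leak channel genes was called, the largest change being -0.24 for the auxiliary subunit gene Teh3 (adjusted p = 0.476). Of the 3 other channels of the superfamily, Cngl, a cyclic nucleotide-gated channel-like gene, was higher in Appl-, at 2530 ± 145 CPM against 1816 ± 77.1 CPM (0.48, adjusted p = 0.0273), beside 3.02% of genes called higher. The call was lost in 6 of 14 alternatives, namely without the filter on low counts (0.0509) and without Appl- replicate 1, 2 or 3 or control replicate 2 or 3 (0.0648 to 0.146), and was kept without control replicate 1 (0.49, 0.0262).

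By the Ensembl annotation, release 115, of the BDGP6.54 assembly, Sh, eag and SK lie on the X chromosome, as does Appl. Shab and Shal lie on chromosome arm 3L, Shaw on 2L, slo on 3R and sei, Elk and KCNQ on 2R. Exons of sei overlap gammaSnap1 and ppk29 on the opposite strand, and those of KCNQ overlap CG18011 and asRNA:CR45133. Whether the counting used strand is not given in the sources used here, so reads of these pairs cannot be told apart if it did not. The exons of the other 8 genes overlapped no other gene in that annotation.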

How the data were processed

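Fly brains were dissociated with trypsin and profiled with the Chromium 3' v3.1 kit. The authors deposited raw UMI counts per gene and barcode for each library, made with Cell Ranger 6.0 per the submitters' processing notes. The genome build, the strand setting and the use of intronic reads are not given in the sources used here. Features that name no gene held 0.600% to 0.846% of UMIs and were left out.

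A barcode was kept from 200 genes upward when mitochondrial UMIs did not exceed 10%, and log counts of 2000 variable genes, without the channel genes, were reduced to 30 components and clustered (scanpy 1.11.5, leidenalg 0.10.2, 20 neighbours, resolution 1), giving 44 clusters. Clusters were named from marker lists. Doublets were not called, and an alternative left out cells over 3 times their library's median UMIs. A VAChT-high, Gad1-high or VGlut-high cluster had a UMI of that gene in at least 25% of cells and at least 2 times as many as for the other transmitter genes. Differences from the study in cell types may come from these rebuilt names.

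Counts were summed per library and class and tested with edgeR 4.0.16 (quasi-likelihood, TMM, filterByExpr, R 4.3.3), adjusted by Benjamini-Hochberg over all genes tested. DESeq2 1.42.0 was an alternative. With 3 libraries a genotype, p-values measure the spread between pooled libraries. Same-numbered libraries of the 2 genotypes shared their deviations from the genotype means (correlations 0.42, 0.37 and 0.42 over genes in all cells), so the number was also fitted as a block, although the labels do not say what it marks. No 2 libraries of a group agreed within sampling noise.

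Named genes were the 10 channel genes, the called genes of 4 other lists or else their gene of largest change, Appl, and the 2 genes most like each channel gene over clusters. The channel genes and lists were chosen with earlier results of these data known, and the Kenyon cell interaction was added after its class values were seen, as was its repeat within each Kenyon cell-like cluster.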

Additional observations from a re-analysis of the deposited data

How the results depend on the processing

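Counts of called channel genes were small and moved with the settings. A count without a share of all genes beside it cannot be read as a result about the channel genes. Over all cells, 0 (beside 5.95% of all genes called) became 1 with the replicate block (10.8%). It also became 1 under DESeq2, without a filter on low counts and without cells over 3 times the median UMIs. The count was 0 to 1 when each library was left out in turn. In neuron-like cells, 1 (beside 6.25% of all genes called) became 2 with the replicate block (11.9%) and with up to 20% mitochondrial UMIs. It became 0 with cells thinned to 500 UMIs, where the call of Shal was lost, and 0 to 1 when libraries were left out. Over the neuron classes, 2 (2.7%, beside 3.17% of all tests) became 5 with the replicate block (6.76% beside 6.53%) and 0 to 2 with libraries left out. Over single clusters, 2 (0.862%, beside 1.96% of all tests) became 1 at 50 cells a library (0.833% beside 2.38%). It became 7 without the filter (2.5% beside 1.86%) and 9 with the replicate block (3.88% beside 3.88%). With libraries left out it was 1 to 6, with 6 (2.5% beside 2.61%) without control replicate 1. For the interaction of genotype with the Kenyon cell-like class, 0 became 2 without the filter (Shal and KCNQ), 1 with cluster 11 alone (Shal), and was 0 to 2 with libraries left out. The causes were not tested, although leaving out a library also leaves fewer samples. Values changed sign for KCNQ in the Kenyon interaction with cluster 11 alone (-0.0845), and in glia-like cells for Shal at 0.0559 at Leiden resolution 0.5 and SK at -0.0167 when thinned to 500 UMIs, none called. At resolution 2 and with channel genes allowed in clustering no cluster could be named glia-like, so those settings gave no value. Of 1542 values of single genes under alternatives, 1479 stayed on their side of the threshold with the same direction or, for 124 uncalled values, a change of sign within 1 SE of 0, 36 lost the call and 24 gained it. Depth limits Elk, sei and KCNQ most, which could be tested in 9, 18 and 10 of 28 clusters.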

Other observations

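The 63 photoreceptor-like cells, 3 to 18 a library, were not tested for differences in level but held channel transcripts. Sh had 1402 UMIs there, SK 367, slo 239 and eag 189. Elk had 1 UMI and Shal 17. KCNQ had 0, 2 and 0 UMIs in 5, 12 and 3 photoreceptor-like cells of the Appl- libraries and 9, 20 and 4 UMIs in 17, 18 and 8 cells of the control libraries, and a count of 0 allows up to 3 UMIs. KCNQ was thus counted mostly in control photoreceptor-like cells, of which there were also more. The share of these cells with a KCNQ UMI was 0%, 16.7% and 0% in Appl- and 23.5%, 27.8% and 12.5% in control libraries. These shares overlapped (exact permutation p = 0.2). Mean shares before thinning were lower in Appl- for every channel gene but Shal, so this direction was not particular to KCNQ.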
